A study of Mus musculus with 16 samples.

Results

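The comparison described here is that of multipotent progenitors of the MPP3 class between mice labelled KO and mice labelled WT for Ebf1. It sets 4 MPP3 libraries labelled KO (KO1 to KO4) against 4 labelled WT (WT1 to WT4). These 8 of a series of 16 were chosen by their labels and not by any measured value. The other 8 libraries are MPP4 cells, another multipotent class, of the same 8 mice, and also entered the main fits. RNA of sorted bone marrow cells was sequenced in bulk, and the question was how targeting of Ebf1 alters the transcripts of progenitors that lean to the myeloid fates.

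Per the sample labels, WT mice were Ebf1fl/fl Tie2Cre+/+ and KO mice Ebf1fl/fl Tie2Cre +/cre, all C57BL/6, so both groups carried floxed alleles. The series description instead gives the Cre transgene to both groups and unfloxed Ebf1 to the WT mice, so whether alleles or transgene differed cannot be told apart from counts. The promoter that drives the Cre is that of Tek (Tie2), which is active in endothelial cells and in blood stem cells, so recombination is not limited to MPP3 cells. WT1 and WT2 were female and WT3 and WT4 male, and KO1 and KO2 were male and KO3 and KO4 female. Ages were 12, 11, 12 and 11 weeks for WT1 to WT4 and 10, 9, 11 and 11 weeks for KO1 to KO4, so the KO mice were on the whole younger and genotype cannot be fully told apart from age.

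Multipotent progenitors lie between the blood stem cell and the committed lineages, and already transcribe low levels of lineage genes, a state called priming. MPP3 cells mostly give rise to granulocytes and macrophages, under transcription factors such as Spi1 (PU.1), Cebpa and Irf8. Ebf1 is best known as the factor that commits progenitors to the B cell lineage, where it holds myeloid genes down.

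The libraries held 24823708 to 41225959 counts and 18853 to 20320 genes with a count, and the 10 most abundant genes took 3.64% to 4.46% of a library. Levels are given as normalised CPM (counts scaled to a common library size), per library or as mean ± SD over 4 libraries. Differences between groups are log2 fold changes of KO against WT ± standard error. Of the sort gate (lineage-negative, Sca1+, Kit+, CD150-, CD48+), Kit was at 780 ± 66.3 CPM in WT and 669 ± 22.7 CPM in KO, and Cd48 at 324 ± 42.0 and 346 ± 24.6 CPM. Slamf1, which encodes CD150, had 10 to 116 counts per library. The lineage marker Ly6g had no count in any of the 8 libraries, which still allows up to 3 counts, or 0.0722 to 0.118 CPM depending on the library. Flt3, which marks MPP4 cells, was at 281 ± 25.3 CPM in MPP3 WT against 1230 CPM in MPP4 WT. Replicates stood apart from each other by more than sampling noise, with a chi-square statistic of 29.5 to 79.4 per gene, and all were kept. Nothing in the labels gave a batch. In the main fits, edgeR and DESeq2 p-values rest on the spread within groups over all 16 libraries. MPP3 and MPP4 libraries of the same mouse were taken as independent there.

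Ebf1 did not fall in the libraries labelled KO. It had 5, 21, 91 and 82 counts in WT1 to WT4 and 23, 6, 84 and 6 counts in KO1 to KO4. KO3 had about as many counts as the WT males, and the groups overlapped over nearly their whole range. The log2 fold change was -0.73 ± 0.69 (edgeR FDR 0.772), and DESeq2 gave an FDR of 0.838. It depended on single libraries, at -2.04 without KO3 and -0.37 without WT3, though Ebf1 was called in no alternative fit. Counts per gene do not separate an intact from a recombined transcript, and an annotated gene overlaps Ebf1, so the libraries are named here by their labels alone.

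Across the 11831 genes tested, most differences between KO and WT MPP3 cells were small. The log2 fold change had a median of -0.01, lay between -0.45 and 0.41 from the 5th to the 95th percentile, and was within 0.25 of 0 for 9058 genes. In all, 48.8% of genes were higher in KO. The edgeR quasi-likelihood test called 8 genes at an FDR under 0.1 (0.0676% of those tested), 4 higher and 4 lower (0.0338% each). DESeq2's Wald test on the same counts called 215 (1.82%), of which 102 were higher (0.862%) and 113 lower (0.955%), and each of the 215 also had that direction in edgeR, at an unadjusted p under 0.05. In what follows, a gene is said to have risen or fallen only if edgeR called it, and is said to be called by DESeq2 if only that test did. The edgeR count was 1 with age as a term or without WT2, and 40, 72 and 137 without WT4, KO1 and WT3, and Mt1 was called in every alternative fit that was run. With the MPP3 libraries alone, edgeR called Mt1 only. The other 7 all lost the edgeR call without WT2 and with age as a term. Emb, Abcd2 and Lifr kept it when any other single library was left out, while Arpp21 also lost it without KO2 or KO3, Espl1 without WT1, KO2, KO3 or KO4, Arhgap27 without WT1, KO2 or KO4, and Ptk2b without WT1, KO3 or KO4. Arpp21 and Espl1 lost it without some MPP4 libraries too. An unadjusted edgeR p under 0.05 was reached by 508 genes higher in KO (4.29%) and 734 lower (6.2%). The KO libraries lay entirely above the WT libraries for 257 genes (2.17%) and entirely below them for 285 (2.41%). Counts given below for groups of genes are to be read against these shares.

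**Figure D1:**
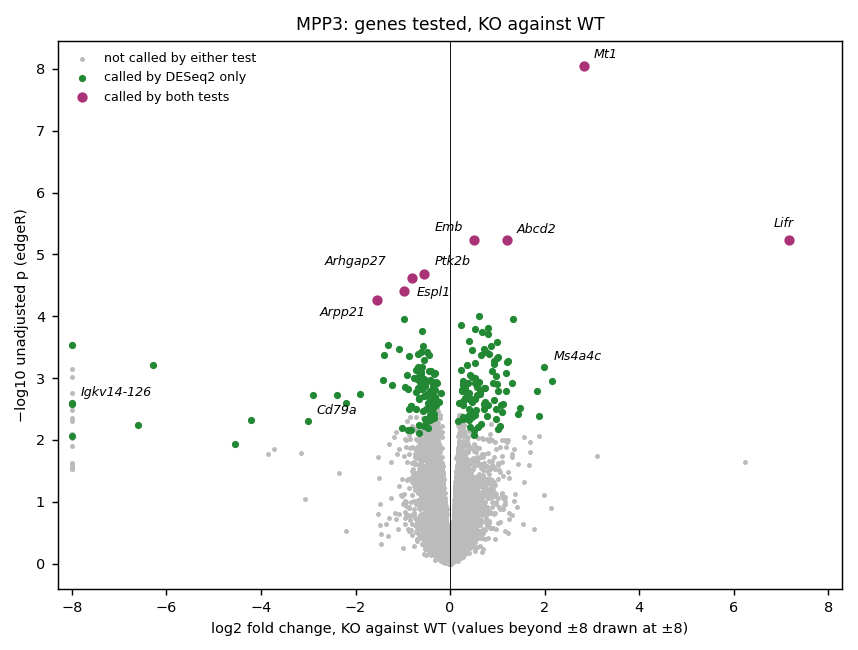
Volcano plot of the 11831 genes tested, with the log2 fold change of KO against WT MPP3 on the x axis and -log10 of the unadjusted edgeR p on the y axis. Grey points were called by neither test, green points by DESeq2 only and purple points by both, and values beyond 8 in size are drawn at the edge; the 8 genes called by both tests include Mt1 and Lifr on the right and Arpp21 on the left.

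On the first principal component of variance-stabilised counts, which held 37.4% of the variance among MPP3 libraries, the KO mean was 9.78 above the WT mean, with SDs of 5.24 and 12.5 (2-sided exact permutation test, p = 0.2). WT1 at -20.0 and WT2 at -10.2 stood apart from the other 6 libraries, which lay between -2.56 and 9.04. Male and female libraries differed on this component by 13.9 (exact permutation p = 0.05714, and 0.02857 with log2 CPM in place of variance-stabilised counts). On the second component, with 18.5% of the variance, the KO mean was 9.74 above that of WT (exact permutation p = 0.05714), where 4 against 4 libraries allow no p below 0.02857. KO1, at -3.01, lay among the WT libraries on this component, while KO2, KO3 and KO4 lay above all of them.

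Of the 3 genes that rose from a level above 0, Mt1 had the largest fold change. Mt1 encodes a metallothionein, a small protein that binds zinc and other metals and is induced by them. It was at 25.7, 23.7, 9.34 and 18.7 CPM in WT1 to WT4 and at 143, 162, 108 and 142 CPM in KO1 to KO4. The lowest KO library was thus far above the highest WT library, and the log2 fold change was 2.84 ± 0.27 (edgeR FDR 0.000104). The other metallothionein gene of this locus, Mt2, lay under the filter on low counts, with 20, 3, 23 and 27 counts in WT and 10, 10, 25 and 5 in KO, so the groups overlapped. Of the list of 17 metallothionein and zinc genes, 14 were tested. After Mt1 the smallest p belonged to the zinc exporter Slc30a5, at a log2 fold change of 0.33 ± 0.12 with groups that did not overlap, and the importer Slc39a1 was at 0.35 ± 0.18. Neither was called by either test.

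The 250 bases before the RefSeq starts of the metallothionein pair (build GRCm38.p6, plus strand, Mt1 at chr8:94178839-94179088 and Mt2 at chr8:94172368-94172617) are shown because the neighbours differ so widely in these libraries. Capitals mark TGCNCNC, the core of the metal response element bound by the factor Mtf1, on either strand.
Mt1: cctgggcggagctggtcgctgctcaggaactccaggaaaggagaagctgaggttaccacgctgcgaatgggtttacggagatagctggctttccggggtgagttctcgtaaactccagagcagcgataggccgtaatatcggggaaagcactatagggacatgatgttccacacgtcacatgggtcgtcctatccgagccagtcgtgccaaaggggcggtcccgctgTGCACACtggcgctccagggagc
Mt2: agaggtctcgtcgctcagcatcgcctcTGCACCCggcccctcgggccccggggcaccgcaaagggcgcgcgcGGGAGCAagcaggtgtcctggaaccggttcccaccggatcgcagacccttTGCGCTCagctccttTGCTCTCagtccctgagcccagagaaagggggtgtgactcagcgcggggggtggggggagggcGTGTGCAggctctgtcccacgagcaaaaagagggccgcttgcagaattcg
These stretches held 1 and 5 matches, and with the next 50 bases 3 and 6. In windows of 300 bases, which run from 250 before to 50 after a start, the core occurs in 51% of all 32851 windows and in some window of 64% of the 8933 tested genes that have one, so a match says little by itself.

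Lifr, the receptor chain for leukaemia inhibitory factor, had no count in any WT library and was at 0.994, 0.232, 0.504 and 0.201 CPM in KO1 to KO4. With 3 counts per WT library as the floor it was at least 5.42-fold higher in KO (edgeR FDR 0.0172). Il6st, which encodes gp130, the chain Lifr signals with, was named after its values were seen, at -0.24, and was not called by either test. Abcd2, a transporter that takes very long chain fatty acids into peroxisomes, rose from 12.5, 7.41, 9.03 and 10.2 CPM to 20.7, 25.1, 24.3 and 20.7 CPM (1.21 ± 0.18). Every KO library lay above every WT library. In the list of peroxisomal and mitochondrial fatty acid oxidation, to which Abcd2 belongs, 24 of 25 genes were tested and had a median log2 fold change of -0.02 (-0.04 without WT3 and 0.01 without WT1), with 2 of them higher and none lower at an unadjusted p under 0.05.

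Emb (embigin), a membrane glycoprotein that escorts monocarboxylate transporters to the cell surface, rose from 336, 328, 391 and 384 CPM to 531, 535, 525 and 464 CPM. It was the most abundant of the 8 called genes, its log2 fold change was 0.51 ± 0.08 (edgeR FDR 0.0172), and KO4 was the lowest of the KO libraries but still above all WT libraries. The other genes of the list of 8 monocarboxylate transport genes lay between -0.46 for the lactate exporter Slc16a3 and 0.13 for the chaperone Bsg, and neither test called any of them.

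The 4 genes that fell take part in adhesion signalling, cell division and early lymphoid priming. Ptk2b (Pyk2), a focal adhesion tyrosine kinase, was at 91.0, 84.0, 73.0 and 83.6 CPM in WT and 58.9, 63.7, 51.2 and 51.8 CPM in KO (-0.56 ± 0.09, edgeR FDR 0.0470). Arhgap27, a GTPase-activating protein, was at 47.0, 37.7, 28.2 and 36.5 CPM in WT and 23.4, 20.9, 22.2 and 18.5 CPM in KO (-0.82 ± 0.14). All KO libraries lay below all WT libraries for both genes, although 3 annotated genes overlap Arhgap27 and use of strand is not given, so its counts are less certain. Espl1 encodes separase, the protease that parts sister chromatids. It was at 41.0, 31.1, 20.9 and 22.4 CPM in WT and at most 16.7 CPM in KO, where the mean was 14.8 ± 1.58 CPM (-0.97 ± 0.17, edgeR FDR 0.0647). The female WT libraries were the highest for Espl1, and the KO libraries were close together. Arpp21, a phosphoprotein gene transcribed in early lymphoid progenitors, was at 2.50, 6.15, 4.98 and 2.93 CPM in WT and 0.864, 1.29, 1.22 and 2.26 CPM in KO (-1.54 ± 0.28, edgeR FDR 0.0795), and it too has 3 overlapping annotated genes.

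**Figure D2:**
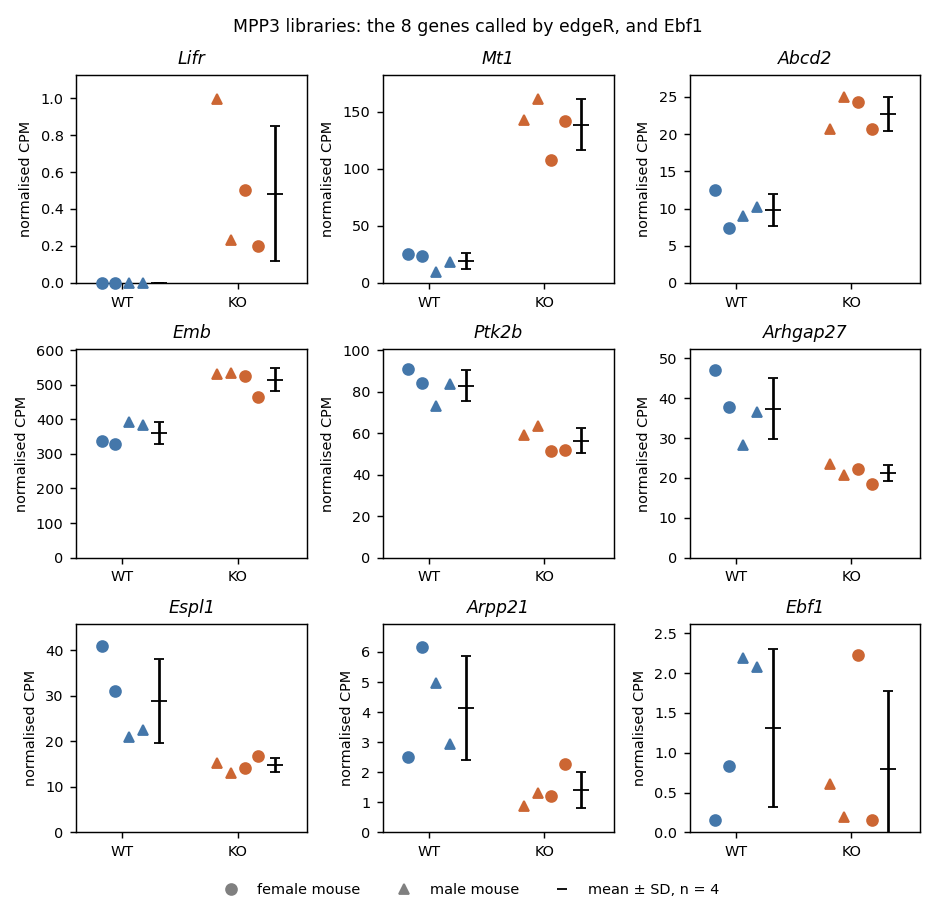
Normalised CPM of the 8 genes called by edgeR and of Ebf1 in each MPP3 library, WT and KO side by side, with symbols for female and male mice and a line at the mean of 4 libraries. In the 8 called genes the KO and WT points do not overlap, while those of Ebf1 do.

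Beyond these 8, the 10 largest differences in each direction were taken among the genes called by DESeq2 with groups that did not overlap. On the higher side they included genes of several kinds. Sorcs2, a sorting receptor, was at 2.16 ± 0.55 on the log2 scale, and Ms4a4c, an interferon-inducible membrane gene of myeloid cells, at 2.00 ± 0.48. Over the alternative fits Sorcs2 ranged from 1.20 to 2.44. Ms4a4c went from 0.813, 1.58, 0.770 and 2.12 CPM in WT to 2.64, 5.31, 8.25 and 4.90 CPM in KO. Lrrc25, a myeloid surface protein, was at 1.21 ± 0.28, Cxcr2, the neutrophil chemokine receptor, at 1.07 ± 0.30, and Mgst2, a microsomal glutathione transferase that can make leukotriene C4, at 1.00 ± 0.22. Phf11d, Ifit3, Ifi27l2a, Iigp1 and Ahnak completed the 10, between 1.01 and 1.47. Their edgeR FDRs lay between 0.147 and 0.273, so none of these calls rests on both tests.

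The 10 on the lower side were led by the antibody gene Igkv14-126 and by the B cell genes Cd79a and Mzb1, described further on. The others were Map3k19 (-2.40 ± 0.65), Arhgap33 (-1.42 ± 0.36), Xlr3b (-1.30 ± 0.28), the exchange factors Plekhg2 (-1.22 ± 0.32) and Plekhg5 (-0.95 ± 0.25), Chpf2, which extends chondroitin sulphate chains (-1.07 ± 0.24), and the phosphatase-like Sbf1 (-0.97 ± 0.19, edgeR FDR 0.119). Sbf1 was highest in the WT females, with 122 and 99.2 CPM in WT1 and WT2, 54.5 and 67.2 CPM in WT3 and WT4, and 36.4 to 48.2 CPM in the KO libraries.

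Of the 102 genes that DESeq2 called higher, 24 belonged to myeloid or lysosome lists and 10 to the interferon or antigen presentation lists. Of the 113 called lower, none belonged to either kind of list, and 5 were antibody genes. The share of all tested genes in these pooled lists was not counted, so the contrast is not read as a result. Those of the 42 lists that are described are given by counts, medians and members only and were not tested, since they were chosen with results of these data known.

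Genes of granule and neutrophil progenitors were higher in KO. All 20 listed genes passed the filter and all 20 had a positive log2 fold change, with a median of 0.57 against -0.01 for all genes. For 13 of them the unadjusted edgeR p was under 0.05, none was called by edgeR, and DESeq2 called 5. Ctsg, the granule protease cathepsin G, was at 388, 339, 340 and 497 CPM in WT and 437, 657, 922 and 839 CPM in KO (0.87 ± 0.19, DESeq2 FDR 0.00881). KO1 lay within the WT range while the other 3 KO libraries lay above it. The same order held for Prtn3, proteinase 3, with 689 to 948 CPM in WT, 859 in KO1 and 1256 to 1346 CPM in KO2 to KO4 (0.52 ± 0.13). Plac8, a gene of early myeloid progenitors, did not overlap between the groups (0.56 ± 0.15), and Anxa3, an annexin of neutrophils, was at 0.83 ± 0.19. Mpo, myeloperoxidase, named after its values were seen, was the most abundant of them. It went from 4107 to 6922 CPM in WT to 4848 CPM in KO1 and 8736 to 11460 CPM in KO2 to KO4 (0.67 ± 0.23, DESeq2 FDR 0.176), and was not called.

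The monocyte and dendritic progenitor list showed the most DESeq2 calls of any list. Of its 24 genes 21 were tested, 20 of them were higher in KO, the median was 0.69, and 15 had an unadjusted edgeR p under 0.05. DESeq2 called 12, all higher, and edgeR called none. Irf8, the transcription factor of monocyte and dendritic cell fate, was at 93.2, 89.5, 69.5 and 106 CPM in WT and 98.2, 148, 227 and 185 CPM in KO (0.88 ± 0.21, edgeR FDR 0.164, DESeq2 FDR 0.0225). Csf1r, the receptor for macrophage colony-stimulating factor, was at 17.7 to 27.9 CPM in WT, 24.8 in KO1 and 37.2 to 43.0 CPM in KO2 to KO4 (0.75 ± 0.20). For both genes KO1 again lay within the range of WT. Mpeg1, the pore-forming perforin-2 of macrophages, had the smallest p of the list (10.6, 11.8, 5.92 and 7.59 CPM against 10.8, 25.2, 29.4 and 24.3 CPM, 1.33 ± 0.26, edgeR FDR 0.119, DESeq2 FDR 3.52e-05). The groups did not overlap for Tyrobp, the signalling adaptor DAP12 (0.68 ± 0.14), for Ms4a6c (0.77 ± 0.17) and for the cathepsin Ctsh (0.93 ± 0.22).

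Myeloid transcription factors moved less evenly. Of 15 listed, 13 were tested, 7 were higher and 6 lower, and 5 had an unadjusted p under 0.05, all higher. Irf8 was the only one that DESeq2 called, and edgeR called none. Cebpa, the factor needed for granulocyte and monocyte progenitors, was at 13.3, 18.4, 12.0 and 27.8 CPM in WT and 26.8, 33.7, 33.8 and 23.5 CPM in KO, so WT4 lay within the KO range (0.72 ± 0.33, edgeR FDR 0.459, DESeq2 FDR 0.318). Over the alternative fits its log2 fold change ranged from 0.42 to 1.02. Spi1 was at 285 ± 15.3 and 334 ± 46.3 CPM (0.23 ± 0.10), and Gfi1, a repressor of the neutrophil branch, at 6.14 ± 2.86 and 11.8 ± 4.85 CPM (0.93 ± 0.36).

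The neighbouring lists of myeloid cells also had positive medians. Of 30 myeloid surface receptors, 21 were tested, 17 were higher with a median of 0.40, 9 had an unadjusted p under 0.05, and DESeq2 called Tyrobp, Lrrc25, the activating receptor Cd300lb (0.98 ± 0.24) and the lectin Clec12a (0.51 ± 0.17). In the lysosome list, 28 of 34 were higher, but the median was only 0.11; 9 had an unadjusted p under 0.05 and DESeq2 called 5, including Ctsz (0.45 ± 0.10), Ctsh, Cd68 (0.53 ± 0.15) and the cholesterol carrier Npc2 (0.28 ± 0.08). Among 13 tested mast cell and basophil genes the median was 0.70, with 3 at an unadjusted p under 0.05, and DESeq2 called only Mcpt8, a basophil protease that went from 26.1 to 38.1 CPM in WT to 42.1 to 68.0 CPM in KO (0.73 ± 0.16). EdgeR called none of these genes. The mast cell and basophil median was 0.30 without KO4, 0.34 without WT4 and 0.41 without WT3. Of mature neutrophil genes only 8 of 16 passed the filter, with a median of 0.37 that turned to -0.09 without KO2 and was 0.15 without WT4 and 0.66 without WT3.

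The libraries did not share this pattern equally. The median deviation of the granule list from its mean over the 8 libraries was -0.12, -0.26, -0.54 and -0.03 in WT1 to WT4 and -0.22, 0.35, 0.57 and 0.61 in KO1 to KO4 on the log2 scale. For the monocyte and dendritic list it was -0.14, -0.35, -0.58 and -0.11 in WT and -0.25, 0.45, 0.65 and 0.38 in KO. KO1 thus lay within the range of the WT libraries in both lists, and WT3 was the lowest of all 8. Without KO1 the list medians were 0.80 and 0.89, and without WT3 they were 0.50 and 0.77. In bulk RNA, fewer cells of a type and less RNA per cell cannot be told apart. Of 16 macrophage markers 10 were tested and all 10 were higher in KO, with a median of 0.11 in females and 1.43 in males and a summed level of 310 to 435 CPM in WT and 429 to 642 CPM in KO. Apoe (0.59 ± 0.19) was the only macrophage marker called by DESeq2. The defining markers Adgre1 and C1qb were at means of 2.94 and 6.67 CPM in KO, with log2 fold changes of 1.70 and 1.01, and edgeR called neither. The part of macrophage RNA in the myeloid differences was not tested.

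**Figure D3:**
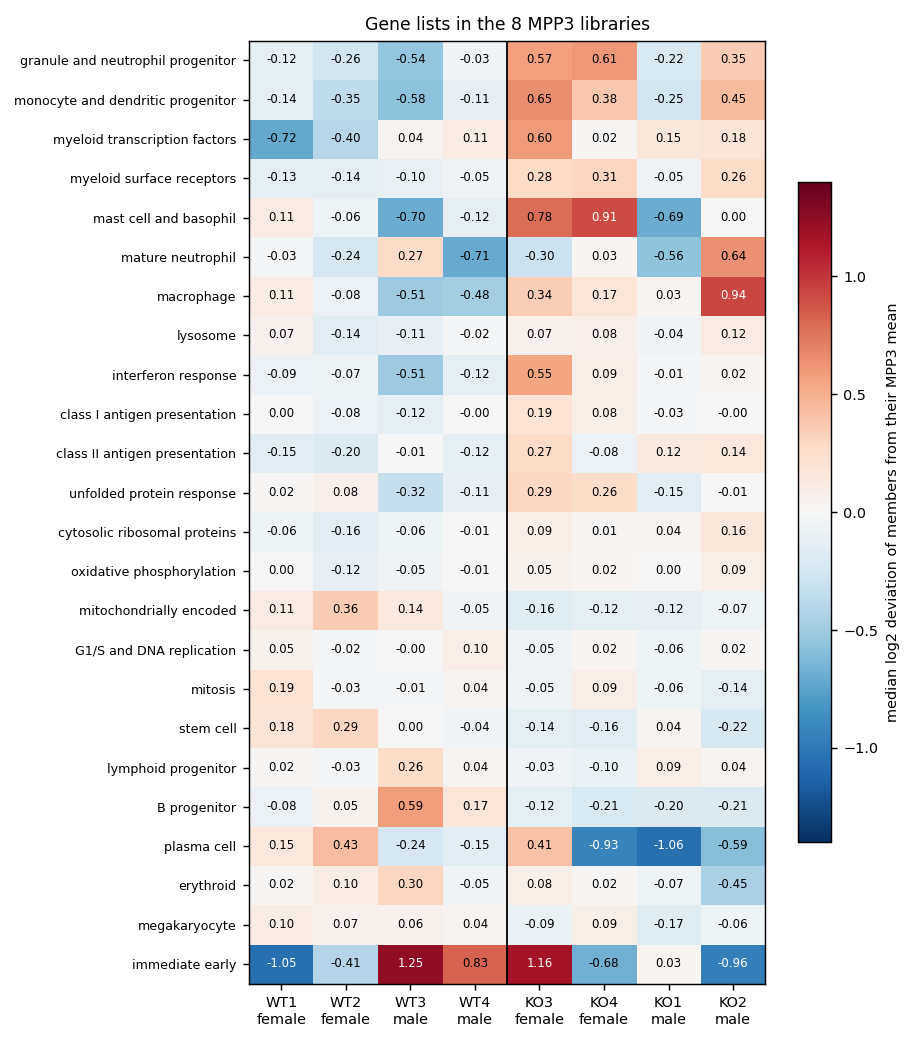
Heat map of gene lists (rows) in the 8 MPP3 libraries (columns, with the sex of the mouse), coloured by the median log2 deviation of a list's genes from their mean over the 8 libraries. KO2, KO3 and KO4 are high in the granule and monocyte rows, at 0.35 or more, while KO1 is at -0.22 and -0.25 and lies with the WT libraries.

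C/EBP factors bind the letters TTGCNNAA. This motif occurred on either strand in some promoter window of 6 of the 16 granule list genes with a window (37.5%), in 2 of 17 of the monocyte and dendritic list (11.8%), in 11 of 79 genes that DESeq2 called higher (13.9%) and in 6 of 86 called lower (6.98%), against 9.96% of all tested genes with a window and 10.8% of all windows. The palindrome bound by Ebf1, TCCC and GGGA with any 2 letters between them, was found in no window of the genes called by DESeq2 in either direction and in 1.12% of tested genes. Such matches describe the letters near a start and not the binding of a factor.

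Interferon response genes were mostly higher in KO, with smaller differences. These genes, induced after interferon reaches its receptor, defend cells against viruses and microbes. Of 40 listed, 39 were tested and 32 were higher, the median was 0.32, and 12 had an unadjusted p under 0.05, all higher. The groups did not overlap for 9 of the 39, all higher in KO. EdgeR called none and DESeq2 called 6. Gbp3, a guanylate-binding protein that attacks intracellular microbes, was at 52.4, 55.6, 49.1 and 65.5 CPM in WT and 74.5, 73.5, 96.5 and 76.9 CPM in KO (0.53 ± 0.11, edgeR FDR 0.134, DESeq2 FDR 0.00268). Iigp1, an immunity-related GTPase, was at 15.5, 16.6, 15.1 and 18.7 CPM in WT and 40.1, 27.1, 43.1 and 22.8 CPM in KO (1.01 ± 0.23). Its relative Ifi47 was at 168 to 176 CPM in WT and 193 to 242 CPM in KO (0.35 ± 0.08). In all 3 genes the KO libraries lay above the WT libraries, KO3 highest.

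KO3 stood out in this list. Ifit3, which blocks translation of viral RNA, was at 3.07, 1.81, 2.26 and 2.96 CPM in WT and 3.87, 4.78, 13.9 and 5.58 CPM in KO (1.47 ± 0.42, DESeq2 FDR 0.0369). Without KO3 its log2 fold change was 0.91. The median deviation of the list was -0.09, -0.07, -0.51 and -0.12 in WT1 to WT4 and -0.01, 0.02, 0.55 and 0.09 in KO1 to KO4, so WT3 and KO3 stood apart while the other 6 lay close together. Without KO3 the median was 0.15, with 6 genes at an unadjusted p under 0.05, and without WT3 it was 0.23. With age as a term it was 0.53.

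The promoters of 3 of these genes with groups that did not overlap show the element through which the interferon factors act (build GRCm38.p6, plus strand, the 250 bases before the RefSeq start, at chr19:34583279-34583528 for Ifit3, chr3:142559794-142560043 for the start of Gbp3 that has a match, and chr11:58199306-58199555 for Igtp). Capitals mark the core of the interferon-stimulated response element, GAAA and GAAA with any 2 letters between them, or its reverse complement.
Ifit3: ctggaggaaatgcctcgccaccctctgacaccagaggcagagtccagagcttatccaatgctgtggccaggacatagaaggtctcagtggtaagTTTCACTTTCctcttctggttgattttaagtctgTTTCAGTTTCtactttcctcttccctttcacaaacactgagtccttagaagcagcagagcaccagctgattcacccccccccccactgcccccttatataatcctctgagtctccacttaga
Gbp3: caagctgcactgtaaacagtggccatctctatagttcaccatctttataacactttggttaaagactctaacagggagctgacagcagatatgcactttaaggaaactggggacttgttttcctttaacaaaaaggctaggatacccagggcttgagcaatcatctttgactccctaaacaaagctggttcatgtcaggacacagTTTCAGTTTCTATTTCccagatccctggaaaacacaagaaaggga
Igtp: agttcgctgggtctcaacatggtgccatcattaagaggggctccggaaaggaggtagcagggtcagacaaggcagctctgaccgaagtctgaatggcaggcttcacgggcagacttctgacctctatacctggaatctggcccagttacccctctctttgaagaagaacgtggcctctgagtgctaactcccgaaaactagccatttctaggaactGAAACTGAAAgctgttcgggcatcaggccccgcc
Ifit3 held 2 matches, at 156 and 122 bases before the start, Gbp3 held 2 that overlap, at 45 and 39 bases, and Igtp held 1, at 34 bases. Igtp, another immunity-related GTPase, named after its values were seen, was at 77.8, 77.5, 65.8 and 71.9 CPM in WT and 96.1, 96.2, 114 and 86.4 CPM in KO (0.42 ± 0.10, DESeq2 FDR 0.0187). The core occurred in a window of 18 of the 27 interferon list genes that have one (66.7%), and these genes were listed for their known induction by interferon. It occurred in 8 of 79 genes that DESeq2 called higher (10.1%), in none of 86 called lower, in 3.83% of tested genes and in 3.44% of all windows.

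Most antigen presentation genes were higher too. Of the 12 class II genes, all tested, 10 were higher with a median of 0.27, 4 had an unadjusted p under 0.05 and DESeq2 called 3. H2-Aa was at 9.00, 10.4, 11.0 and 8.02 CPM in WT and 22.7, 16.3, 20.6 and 13.4 CPM in KO (0.93 ± 0.22, DESeq2 FDR 0.00632). H2-Eb1 was at 3.71 to 6.27 CPM in WT and 8.96 to 10.6 CPM in KO (0.99 ± 0.25), and H2-Ab1 at 66.8 to 89.3 and 90.3 to 128 CPM (0.50 ± 0.17). These genes encode the chains of the class II molecules that show peptides to helper T cells, and in each of them all KO libraries, KO1 included, lay above all WT libraries. Of the 18 class I genes, 14 were higher with a median of 0.14, 5 at an unadjusted p under 0.05. The immunoproteasome subunit Psmb8 was called by DESeq2 (600 ± 35.3 against 727 ± 47.0 CPM, 0.28 ± 0.07), and edgeR called none of either list. Without KO3 the medians were 0.16 for class II and 0.08 for class I.

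A few genes of the B lineage, at low levels in MPP3 cells, were lower in KO. Of the B progenitor list 10 of 18 genes passed the filter, and at an unadjusted p under 0.05 4 were lower and none higher, among them Arpp21. Cd79a, a signalling chain of the B cell receptor, was at 2.56, 3.47, 2.96 and 1.75 CPM in WT and 0.0262, 0.299, 0.663 and 0.327 CPM in KO (-3.01 ± 0.93, edgeR FDR 0.254, DESeq2 FDR 0.0657). Blk, a kinase of B cells, had 36, 0, 47 and 0 counts in WT and 0, 0, 0 and 4 counts in KO, so the groups overlapped and the DESeq2 call (FDR 0.0403) rests on WT1 and WT3. Spib, a factor of B cells and plasmacytoid dendritic cells, was at 1.90 ± 0.51 and 0.206 ± 0.394 CPM and was not called. The other members, such as Cd79b, Foxo1 and Cd24a, lay between -0.08 and 0.22 apart from Ebf1 itself. The list median of -0.41 therefore says little about a typical member, and it ranged from -1.13 to 0.01 over the alternative fits.

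Plasma cell and antibody genes differed widely between libraries. Ighm, the mu heavy chain, was at 799, 475, 266 and 195 CPM in WT and 130, 131, 247 and 154 CPM in KO (-1.39 ± 0.32, edgeR FDR 0.147, DESeq2 FDR 0.0205), highest in the WT females and with KO3 inside the WT range. Without WT1 its log2 fold change was -0.91. Mzb1, a chaperone of antibody secretion, was at 0.961 to 4.18 CPM in WT and 0 to 0.598 CPM in KO (-2.89 ± 0.78). The kappa constant gene Igkc was at 381, 361, 82.9 and 67.6 CPM in WT and 0, 0, 61.2 and 0 CPM in KO, and Jchain, which joins antibody units, at 133, 76.0, 36.5 and 34.5 CPM in WT and 0, 0.266, 20.6 and 0.0754 CPM in KO. For both, all KO libraries lay below all WT libraries and neither test called the difference (edgeR FDR 0.350 and 0.324), while without KO3 the edgeR FDRs were 0.0208 and 0.0328. The plasma cell list, with 14 of 23 genes tested, had a median of -0.59, which was 0.07 without WT1 and -2.56 without KO3. Genes of the secretory machinery in this list, such as Xbp1 and Txndc5, were at 0.35 and 0.33 and so did not follow the antibody genes. Mature B cell markers, with 8 of 15 tested, had a median of -0.06 and none at an unadjusted p under 0.05, and neither test called any of them. That median was -0.09 without WT2, -0.10 without WT3, -0.14 without KO1, -0.12 without KO3 and -0.23 with the MPP3 libraries alone.

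Antibody genes in the 8 libraries came in different sets. Summed over the 46 immunoglobulin genes tested, the level was 1711, 1407, 456 and 361 CPM in WT1 to WT4 and 134.5, 134, 421 and 158 CPM in KO1 to KO4, so KO3 lay within the WT range and the other KO libraries below it. Each antibody-forming clone uses its own variable genes. Of the 36 variable genes tested, 21 exceeded 100 counts in 1 library only, 5 in 2 libraries and 3 in 3 or more. They exceeded it in 16, 10, 4 and 5 genes in WT1 to WT4 and in 0, 0, 6 and 0 genes in KO1 to KO4. Igkv14-126 had 2678, 1896, 2520 and 1 counts in WT and none in KO. Its WT mean was at least 648.5-fold above KO with 3 counts per library as the floor (DESeq2 FDR 4.88e-13, edgeR FDR 0.195). WT4 lay under that floor itself, so the bound rests on WT1 to WT3 and the lack of overlap on 1 count. Ighv11-2 followed it with 1711, 1205, 1307 and 0 counts in WT and none in KO, and this pairing is known from B-1a cells that recognise phosphatidylcholine. Igkv8-19, with 2905 counts, belonged to WT2 and Igkv6-32, with 697, to KO3. These 3 genes are named after their values were seen. A gene high in 1 WT library passes the filter through that library, so the median of the 46 genes (-6.72) and their count at an unadjusted p under 0.05 (27 lower, 1 higher) describe genes selected for being high somewhere.

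**Figure D4:**
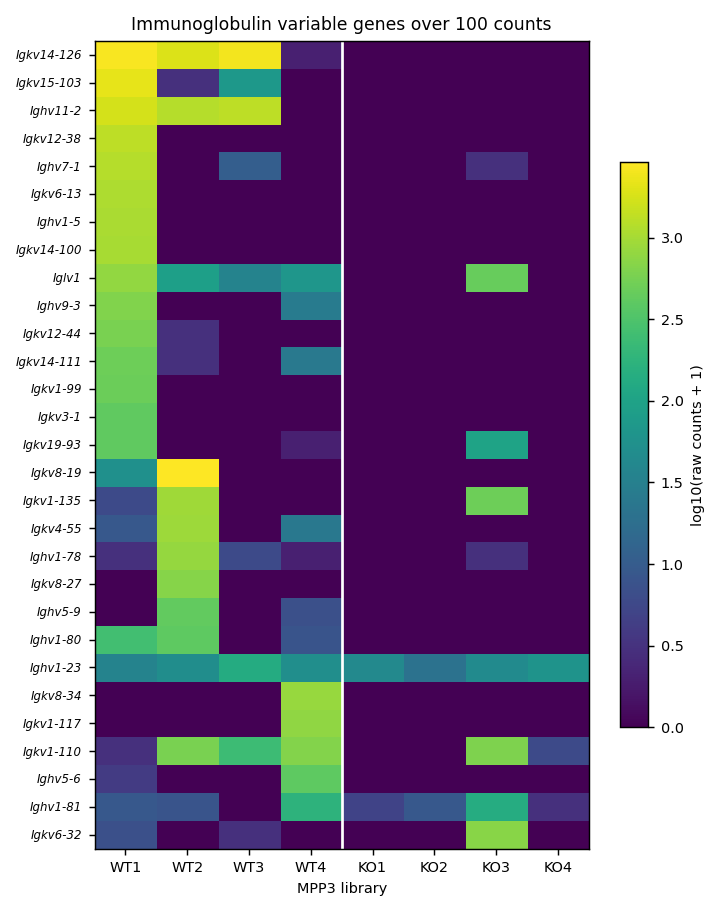
Heat map of log10 of raw counts plus 1 for the immunoglobulin variable genes over 100 counts in some MPP3 library (rows), by library (columns). Most rows are bright in 1 column only, and KO1, KO2 and KO4 hold no variable gene over 100 counts while KO3 holds 6.

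Among lymphoid progenitor genes as a whole, 23 of 24 tested, the difference was small, with a median of -0.09, which was -0.03 without WT3, -0.04 without KO3 and -0.17 without WT1. Apart from Arpp21, DESeq2 called Lax1, a brake on lymphocyte receptor signalling (-0.46 ± 0.13, KO below WT in all libraries). Wfdc17, at 0.77 ± 0.26, had the opposite sign and was not called. Jak3, the kinase of lymphoid cytokine receptors, was called lower by DESeq2 (237, 206, 140 and 138 CPM in WT against 133, 126, 94.3 and 104 CPM in KO, -0.66 ± 0.18), and the WT females again were highest. Its log2 fold change was -1.15 ± 0.10 in females and -0.11 ± 0.10 in males, and the difference between them had an edgeR FDR of 0.112 and a DESeq2 FDR of 5.07e-07. In the list of cytokine receptors and JAK-STAT genes, 30 of 31 tested, the median was -0.03, which turned to 0.01 without KO4 and was -0.01 without WT1, and at an unadjusted p under 0.05 3 genes were higher and 4 lower.

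Stem cell genes leaned lower in KO. Of 21 listed 19 were tested, 14 were lower, and the median was -0.26, which was -0.13 with age as a term. At an unadjusted p under 0.05, 3 were lower and 1 higher, edgeR called none, and DESeq2 called 1 in each direction. Hlf, a transcription factor of stem cells, was at 160, 151, 151 and 128 CPM in WT and 115, 88.9, 100 and 106 CPM in KO (-0.52 ± 0.16, DESeq2 FDR 0.0685). Meis1, a homeobox factor of stem cells (-0.30 ± 0.11), was lower in all KO libraries than in any WT library and was not called. Hlf was at -0.29 and Meis1 at -0.10 in the fit with age. Ly6a, which encodes the sort marker Sca1, went the other way (30.3 ± 2.51 and 41.7 ± 7.37 CPM, 0.46 ± 0.13, DESeq2 FDR 0.0506), and Kit, the other sort marker, was at 705 to 838 CPM in WT and 644 to 693 CPM in KO (-0.22 ± 0.07, DESeq2 FDR 0.129). Since both genes encode proteins used in the sort, their part in the other differences was not tested. Tek, whose promoter drives the Cre, was at 0.10 ± 0.32. Megakaryocyte and erythroid genes, with 9 tested in each list, had medians of -0.13 and -0.15. The megakaryocyte median was -0.06 without KO1, -0.04 without KO2 and -0.21 without KO4, the erythroid one ranged from -0.29 without WT4 to -0.02 without WT3, and with age as a term they were 0.02 and 0.12. DESeq2 called only Car2, carbonic anhydrase 2 of early erythroid and stem cells, which was at 1306 to 1493 CPM in WT and 1001 to 1185 CPM in KO (-0.37 ± 0.11).

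Ribosomal protein genes showed a small shift in 1 direction. All 71 cytosolic ribosomal protein genes listed were tested and all 71 were higher in KO, with a median of 0.15. For 41 the unadjusted p was under 0.05, for 18 the KO libraries lay entirely above the WT libraries, edgeR called none and DESeq2 called 2, Rpl10 and Fau. Rpl10 was at 671, 653, 679 and 716 CPM in WT and 752, 802, 833 and 788 CPM in KO (0.22 ± 0.05, DESeq2 FDR 0.0212), and Fau at 339 to 374 and 384 to 450 CPM (0.25 ± 0.07). Summed over the list, the level was 49730 to 55320 CPM in WT and 56350 to 62570 CPM in KO, without overlap. Ribosomal protein genes have many processed copies in the genome, and reads shared with them are uncertain.

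Translation and energy genes leaned the same way by less. Of 40 ribosome biogenesis genes 28 were higher with a median of 0.07, which was 0.03 without WT1, and at an unadjusted p under 0.05 3 were higher and 2 lower. The only call in that list went the other way, as DESeq2 called Polr1b, a subunit of RNA polymerase I, lower (-0.30 ± 0.08, DESeq2 FDR 0.0969). Of 38 translation initiation factors 31 were higher, also with a median of 0.07, which was 0.04 without KO4 or with age as a term. In the list of 75 nuclear genes of oxidative phosphorylation 69 were higher with a median of 0.08 (0.05 with age as a term), yet only 1, Cox6b1, had an unadjusted p under 0.05, and neither test called any. The 9 tested of 13 mitochondrially encoded genes went the other way, with a median of -0.25, which was -0.17 without WT2, and all 9 lower. Of these, mt-Nd4, a subunit of complex I, was at 250, 303, 240 and 220 CPM in WT and 178, 183, 184 and 216 CPM in KO (-0.41 ± 0.11, DESeq2 FDR 0.0375), and mt-Nd1 and mt-Cytb were at -0.30 ± 0.12 and -0.32 ± 0.10. The share of counts in mitochondrial genes, which also tracks RNA quality, was 0.379% to 0.574% in WT and 0.365% to 0.420% in KO, and its part was not tested. Of 25 tested genes of the unfolded protein response, which helps secretory proteins fold, 21 were higher with a median of 0.20 and 6 at an unadjusted p under 0.05, led by the lectin chaperone Canx (0.19 ± 0.06) and the disulphide isomerase Pdia3 (0.20 ± 0.06). Neither test called any of these. Of 25 glycolysis and pentose phosphate genes 19 were higher with a median of 0.06, which was 0.11 without KO1 and 0.01 with age as a term.

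Genes of cell division leaned lower. Of 52 mitosis genes, all tested, 43 were lower with a median of -0.10, and 9 had an unadjusted p under 0.05, all lower. Without WT1, however, 30 of the 52 were lower and the median was -0.04, as it was with age as a term, and without KO2 it was -0.07. Besides Espl1, DESeq2 called Incenp, a subunit of the chromosomal passenger complex (141 to 169 CPM in WT and 110 to 141 CPM in KO, -0.29 ± 0.07), and the condensin subunit Ncapd2 (-0.28 ± 0.08). Core regulators such as Cdk1, Ccnb1 and Plk1, named after their values were seen, lay between -0.10 and 0.02. Of 45 genes of G1/S and DNA replication 32 were lower with a median of -0.04 (-0.01 without WT4, -0.02 without KO1 or KO3), 4 at an unadjusted p under 0.05, and DESeq2 called Pold1, the catalytic subunit of DNA polymerase delta (-0.41 ± 0.12). Histone genes and the 33 Fanconi and homologous recombination genes had medians of -0.10 and -0.08, with none at an unadjusted p under 0.05 and no call by edgeR or DESeq2, and the histone median turned to 0.09 without WT3 and 0.10 without KO2. The Fanconi median was -0.02 without WT1 and -0.06 without KO2.

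Among 23 Polycomb and DNA methylation genes the median was -0.01 (-0.07 without WT1 and 0.02 without KO3), with 4 lower at an unadjusted p under 0.05, of which the DNA methyltransferase gene Dnmt3b was lower in all KO libraries (-0.21 ± 0.07), and no call by either test.

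**Figure D5:**
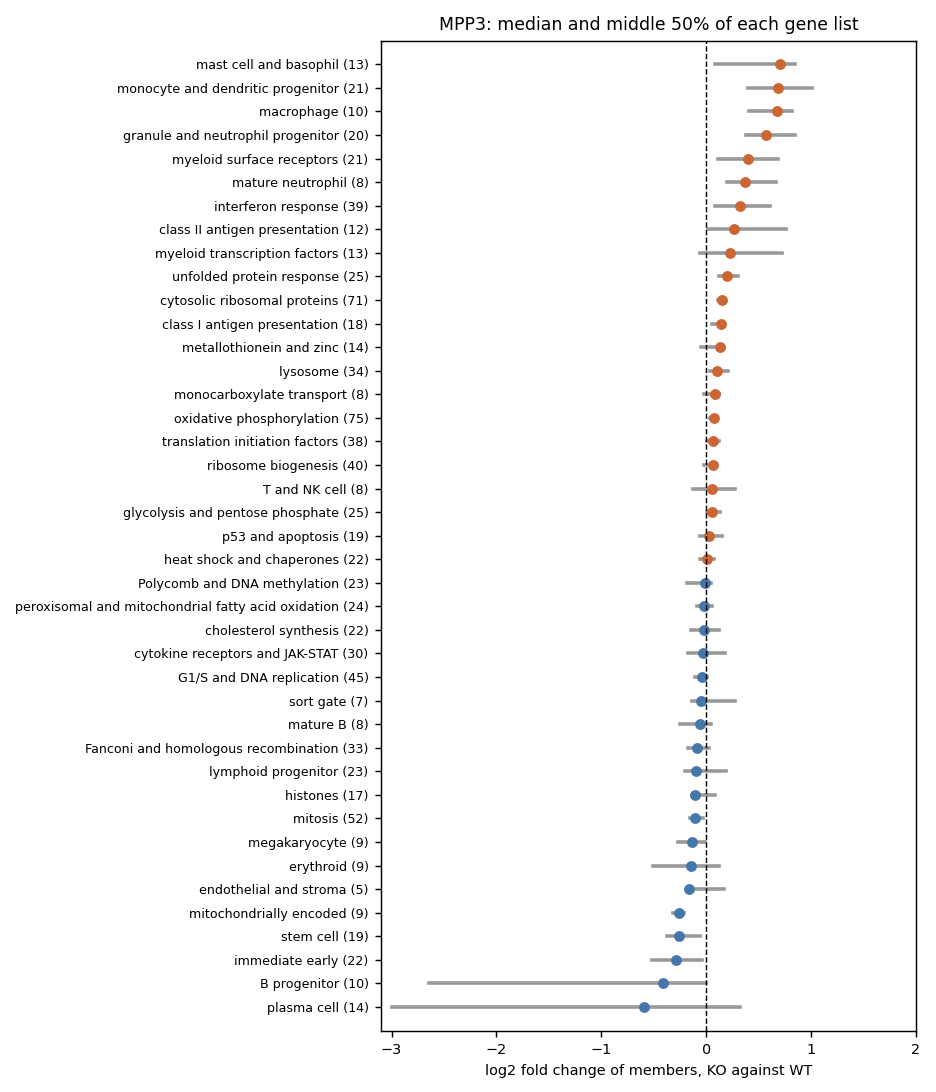
Median (point) and middle 50% (bar) of the log2 fold change of KO against WT MPP3 over the tested genes of each list shown, with the number tested in brackets and a dashed line at the median of all genes. The monocyte, granule, mast cell and macrophage lists lie highest, between 0.57 and 0.70, and the plasma cell and B progenitor lists lowest, at -0.59 and -0.41.

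The direction of the difference also ran with transcript length, level and GC content. By length of the longest transcript, the shortest quintile of genes had a median log2 fold change of 0.05 and the longest one of -0.06, with 0.01, -0.01 and -0.04 between. At an unadjusted p under 0.05, 187 of the shortest were higher and 48 lower, and of the longest 51 were higher and 230 lower. Without WT1 the medians at the ends were 0.06 and -0.06. Genes that DESeq2 called higher had a median length of 2645 bases and those called lower one of 4163 bases, against 3232 bases for all. The lists followed it in part. Ribosomal protein and oxidative phosphorylation genes had median lengths of 1109 and 1141 bases and were higher, mitosis and stem cell genes had 3826 and 4366 bases and were lower, and the granule list had 1424. Other lists went against it. Mitochondrially encoded, histone and erythroid genes, with 1038, 820 and 1504 bases, had negative medians. Metallothionein and zinc genes and monocarboxylate transport genes, with 4106 and 4117 bases, had positive ones. By mean level, 62.4% of the most abundant quintile of genes were higher in KO against 44% of the least abundant. By GC content of the longest transcript, 104 genes of the highest quintile were higher and 281 lower at an unadjusted p under 0.05, against 77 and 75 of the lowest. The median of the highest quintile was -0.04, and without WT1 it was -0.02, as was that of the lowest. Genes that DESeq2 called lower had a median GC content of 55.3% against 49.4% for all. The parts of length, level and GC content in the smaller list medians were not tested.

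The sexes were balanced between the groups. With sex as a term in the fit edgeR called 58 genes (0.49%), 31 higher and 27 lower, including all 8, and 56 of them were also among the 215 of DESeq2. Calls gained in this way included Xlr3b, Mpeg1, Gbp3, Tyrobp, Mgst2 and Ctsg. The granule list had a median of 0.85 in females and 0.29 in males, the monocyte list 0.98 and 0.49, the macrophage list 0.11 and 1.43, the mature neutrophil list 0.02 and 0.56, the interferon list 0.33 and 0.23, and the ribosomal protein list 0.17 and 0.13. KO1 is 1 of the 2 male KO libraries. The female and male effects were compared by an interaction term over 11482 genes, and edgeR called no gene, with 990 at an unadjusted p under 0.05 (8.62%), while DESeq2 called 215 genes with 2 libraries per sex and genotype.

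Immediate early genes, which respond within minutes to handling and stimulation, varied more within groups than between them. Fos was at 68.0, 192, 1748 and 950 CPM in WT1 to WT4 and 304, 12.4, 1641 and 113 CPM in KO1 to KO4. The libraries WT3, WT4 and KO3 were high, and the groups overlapped fully. Of the 22 tested genes of the list 17 were lower in KO with a median of -0.29, none had an unadjusted p under 0.05 and neither test called any. The list median ranged from -0.93 without KO3 to 0.18 without WT3. The medians were 1.32 in females and -1.48 in males. WT3 and KO3 were also the extreme libraries of the interferon list.

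The MPP3 differences were set beside those of MPP4 cells from the same mice. Of the 102 genes DESeq2 called higher in MPP3, 99 were higher in MPP4 as well, and of the 113 called lower 106 were lower, against 8224 of all 11831 genes with the same sign in both, and the 8 mice are shared. For the difference between the MPP3 and MPP4 effects, edgeR called no gene, with 270 at an unadjusted p under 0.05 (2.28%), and DESeq2 called 8 (0.0676%). With each mouse as a block, as the shared mice allow, edgeR called 2, Mt1 and Tek. Mt1, which is 1 of only 2 genes that edgeR called in MPP4 itself (0.0169%), rose by 2.84 in MPP3 and by 4.88 ± 0.30 in MPP4 on the log2 scale, a difference of -1.93 ± 0.19 in the blocked fit (edgeR FDR 0.00158). Its mean KO level was alike in both classes, at 139 CPM in MPP3 and 136 CPM in MPP4. The mean WT level was 19.4 CPM in MPP3 and 4.62 CPM in MPP4. Tek was at 0.10 ± 0.32 in MPP3 and 1.89 in MPP4, a difference of -1.79 ± 0.46 in the fit without the block and of -1.89 ± 0.25 with it (edgeR FDR 0.0230 with the block). Among the 8 called by DESeq2 were Arpp21, Lifr and Abcd2, whose MPP4 log2 fold changes were 0.38, 0.55 and 0.00. Abcd2 was at 15.9 CPM in both MPP4 groups. The mitochondrially encoded genes had a median of 0.29 in MPP4 against -0.25 in MPP3, and 7 of the 9 had an unadjusted p under 0.05 for that difference, though none was called by edgeR or DESeq2. The granule and monocyte lists had medians of 0.39 and 0.50 in MPP4, with no gene of either at an unadjusted p under 0.05 for the difference and no call by either test.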

How the data were processed

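Cells were sorted as lineage-negative, Sca1+, Kit+, CD150- and CD48+, and polyadenylated RNA was sequenced in paired ends after low-input library preparation. Per the submitters' processing notes, reads were aligned to mm10 with STAR 2.7.3a and counted per gene with featureCounts 2.0.0. The authors deposited these raw counts, which were the input of every test; they also deposited a table of the counts divided by DESeq2 (1.28.1) size factors, a normalised signal that was not used here. Use of strand and the annotation release are not given in the sources used here. Symbols and coordinates came from GENCODE M21 (GRCm38), and promoter sequences from RefSeq (GRCm38.p6).

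The 11831 genes whose mean exceeded 100 counts in some group were fitted with edgeR 4.0.16 under R 4.3.3 (TMM, quasi-likelihood F-test, legacy deviances), all 16 libraries in 1 fit with 1 mean per group. Benjamini-Hochberg FDRs under 0.1 were called. The Wald test of DESeq2 1.42.0 was the alternative tool. On simulated counts of 11831 genes for this comparison, edgeR recovered 54% of changes of 1.5-fold and 88% of those of 2-fold with 18 false calls in all, and DESeq2 56% and 88% with 46, each fold being given to 50 genes. The simulated libraries were drawn independently, with no effect of mouse, sex or age, so these rates need not hold for the real libraries. MPP3 and MPP4 libraries of the same mouse deviated together (r 0.274 to 0.528), while same-numbered WT and KO libraries did not (-0.307 to -0.115). Reads carried no molecular identifiers, so limits from counts cover counting error only.

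The members and the gene lists were chosen with earlier results of these data known. Genes were named if edgeR called them, if they were among the 10 largest differences in each direction of those called by DESeq2 only with groups that did not overlap, if they had among the 4 smallest p-values of a list, or if they check the labels or the study turns on them, except where the text says otherwise. A few genes and 1 gene list are not reported here.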

Additional observations from a re-analysis of the deposited data

Results flagged for a closer look

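Single libraries stood apart within a group of 4 by Dixon's criterion in 17 of 242 groups examined, where chance alone gives about 1 in 20. Among genes, Emb was at 464 CPM in KO4 against 525 to 535 CPM in the other KO libraries, Gbp3 at 96.5 CPM in KO3 against 73.5 to 76.9, Ifit3 at 13.9 CPM in KO3 against 3.87 to 5.58, and Ifi27l2a at 13.7 CPM in KO3 against 6.96 to 7.77. The mitochondrial gene mt-Nd4 was at 216 CPM in KO4 against 178 to 184, and Cxcr2 was at 5.63 CPM in WT3 against 10.5 to 10.8 in the other WT libraries. Of the B lineage genes, Blk was at 0.101 CPM in KO4 and 0 in the other KO libraries, Jchain at 20.6 CPM in KO3 against 0 to 0.266, Igkc at 61.2 CPM in KO3 against 0, and the immunoglobulin genes summed to 421 CPM in KO3 against 134 to 158.

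Among lists, given as the median log2 deviation of a library, KO3 was at -0.122 for B progenitor genes (others -0.208 to -0.199) and 0.0596 for fatty acid oxidation (others -0.00173 to 0.00524). WT3 was at -0.509 for the interferon response (other WT -0.124 to -0.0717), and WT1 at 0.196 for Fanconi and homologous recombination genes (other WT 0.0106 to 0.0223). KO1 was at -0.164 for cholesterol synthesis (others 0.0414 to 0.0775), -0.0472 for myeloid surface receptors (others 0.258 to 0.305) and -0.0826 for glycolysis (others 0.053 to 0.0778). In 2 of 122 values every female and every male library moved in opposite directions between the genotypes. For Ptprc the difference was 60.5 CPM in females minus males, and the interaction term gave 0.33 on the log2 scale (edgeR FDR 0.427). For the endothelial and stroma list it was -0.617 on the log2 scale and was not tested.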

How the results depend on the processing

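The number of genes that edgeR called in MPP3 was 8, and became 215 with DESeq2, 58 with sex as a term, 5 with adjusted deviances, and 1 with age as a term or with the MPP3 libraries alone. It ranged from 1 to 137 when single libraries were left out. With the WT and KO libraries of the same number as a replicate block it was 6, but these numbers do not pair the mice. The DESeq2 count of 215 ranged from 82 (without WT2) to 415 (without WT3), and was 401 with sex as a term, an alternative chosen after seeing the data like the leave-one-out fits of that test. For the difference between the MPP3 and MPP4 effects the count of 0 became 8 with DESeq2 and 2 with the mouse as a replicate block, and ranged from 0 to 1 when single libraries were left out. For the difference between the sexes the count of 0 became 5 with all 16 libraries, 215 with DESeq2 and 177 with all genes that had a count. The genotype difference on both components kept its direction and its side of the threshold under both alternatives, while the sex difference on the first had an exact permutation p of 0.02857 with log2 CPM against 0.05714. Of the 8 genes called, Mt1 kept its edgeR call in all 26 alternatives, while Arpp21 lost it in 15, Espl1 in 14, Arhgap27 and Ptk2b in 8 each, Emb and Abcd2 in 4 each and Lifr, tested in all but 1, in 3. Over 4688 pairs of 1 of the 181 named genes and 1 alternative, no call reversed, and 1056 of 1092 medians over the 42 lists stayed within 1 SD of libraries; wide ranges were those of the plasma cell (-2.56 to 0.10), immediate early (-0.93 to 0.53) and B progenitor (-1.13 to 0.01) lists. The causes were not tested.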
